A study of Mus musculus with 12 samples.

Results

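Adult liver runs the glucose pathway with isoenzymes of its own at several steps, and 8 genes were followed here across livers that had or had not lost protection from a toxic block in tyrosine breakdown. Pck1, Fbp1 and Pklr were taken as the adult liver isoenzymes, and Hk1, Hk2, Pfkp, Aldoa and Ldha as forms found in fetal liver or in tissues generally. Members were all probe sets annotated to 1 of these symbols and no other. That gave 16 of 22626 probe sets on the Affymetrix 430A array and 19 of 45037 on the 430 2.0 array, each set covering all 8 genes.

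Tyrosine breakdown ends with fumarylacetoacetate hydrolase, the enzyme made by Fah. The drug NTBC stops the pathway further up, so a Fah knockout mouse stays well on it and accumulates toxic products once it is withdrawn. p21, the product of Cdkn1a, inhibits cyclin-dependent kinases. All mice were 10 weeks of age, and RNA came from 10 mg of whole liver. On 430A the normal group held 4 livers with 1 mouse for each condition: normal 1 was a wildtype mouse on water, normal 2 a wildtype mouse on NTBC, normal 3 a Fah knockout mouse on NTBC and normal 4 a Fah, p21 knockout mouse on NTBC. Withdrawal was studied in 3 Fah knockout livers (Fah off) and 2 Fah, p21 knockout livers (Fah p21 off), from mice given water in place of NTBC for 14 days. On 430 2.0 there were 2 further Fah p21 off livers (numbered 3 and 4) and 1 normal liver, titled normal 4 as on 430A. Both groups off NTBC are thus knockout for Fah, while the normal group mixes mice with and without knockout of Fah and p21. The titles call the arrays biological replicates.

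Values are MAS5 signals, a linear probe set intensity. Fold changes are differences of log2(signal + offset), and passing means an adjusted p under 0.05 by limma over every probe set tested. The number of arrays limits the precision. Fah itself read 6868.1 and 7120.1 in the wildtype livers of 430A, and 181.9 and 233.0 in normal 3 and 4, which are knockout for Fah. It read 100.8 to 114.2 in the 5 livers off NTBC, so it followed the labels. Cdkn1a has 2 probe sets on 430A. One read 989.5 to 1861.5 in Fah off, 14.7 to 51.4 in normal livers and 9.5 and 8.2 in Fah p21 off. The other read 2814.0 to 3935.7 in Fah off, 75.2 to 257.7 in normal livers, and 1827.6 and 2059.6 in Fah p21 off (3788.7 and 3654.9 on 430 2.0), so transcript matching it was measured in the p21 knockout livers. The labels do not say which part of Cdkn1a was deleted. Of 9195 genes tested on 430A, 36.2% passed in Fah off against normal and 29.4% in Fah p21 off against normal. Against these shares, 5 and 6 of the 8 member genes passed. Signals of the livers off NTBC and the normal livers did not overlap for 6 and 7 members, where 43.3% and 48.1% of all genes did not overlap. Hepatocyte markers, 7 of 8 measured, summed to 101090 to 107800 in normal livers, 63055 to 70438 in Fah off and 62509 to 64926 in Fah p21 off. In whole tissue, fewer cells of a type and less RNA per cell cannot be told apart.

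Glycolysis splits glucose to pyruvate and is opened by hexokinases, committed by phosphofructokinase and closed by pyruvate kinase. Gluconeogenesis runs the other way in liver and kidney, with its own enzymes at the irreversible steps, among them phosphoenolpyruvate carboxykinase (Pck1) and fructose-1,6-bisphosphatase (Fbp1). Hepatocytes of the adult use the liver pyruvate kinase of Pklr, which red cells also make from a separate promoter, whereas fetal liver and most dividing cells use the product of Pkm. Pck1 is a textbook target of glucagon through cyclic AMP, liver Pklr of glucose through a carbohydrate response element, and Hk2 and Ldha of hypoxia-inducible factor.

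The promoters of 4 members are shown because they carry the letters by which these inputs are usually recognised, and because the members moved in different directions. Each is the 250 bases before a RefSeq start in GRCm38.p6, read 5′ to 3′ on the gene's strand, with matches in capitals. All 8 genes had an entry, with 13 starts in total. The motifs were picked after these promoters had been read. Both strands were searched for TTACGTCA and TGACGTCA (cyclic AMP response elements), ACGTG (the core of the hypoxia response element) and the consensus carbohydrate response element.
Pck1, chr2:173152823-173153072, + strand: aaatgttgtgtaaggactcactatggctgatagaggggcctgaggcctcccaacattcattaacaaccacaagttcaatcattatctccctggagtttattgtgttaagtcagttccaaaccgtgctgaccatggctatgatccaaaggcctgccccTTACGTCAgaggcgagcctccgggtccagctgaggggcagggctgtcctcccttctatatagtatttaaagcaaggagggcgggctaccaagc
Pklr, downstream start, chr3:89136373-89136622, + strand: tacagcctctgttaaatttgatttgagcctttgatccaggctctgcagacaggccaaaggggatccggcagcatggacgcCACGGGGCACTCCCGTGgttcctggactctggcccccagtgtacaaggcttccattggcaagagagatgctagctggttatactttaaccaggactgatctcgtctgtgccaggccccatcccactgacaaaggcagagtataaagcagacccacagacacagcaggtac
Hk2, chr6:82774455-82774704, - strand: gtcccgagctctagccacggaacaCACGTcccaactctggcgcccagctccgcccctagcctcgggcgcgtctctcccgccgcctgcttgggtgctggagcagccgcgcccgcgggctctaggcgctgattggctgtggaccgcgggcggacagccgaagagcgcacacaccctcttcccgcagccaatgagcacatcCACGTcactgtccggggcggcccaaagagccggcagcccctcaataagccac
Ldha, upstream start, chr7:46845554-46845803, + strand: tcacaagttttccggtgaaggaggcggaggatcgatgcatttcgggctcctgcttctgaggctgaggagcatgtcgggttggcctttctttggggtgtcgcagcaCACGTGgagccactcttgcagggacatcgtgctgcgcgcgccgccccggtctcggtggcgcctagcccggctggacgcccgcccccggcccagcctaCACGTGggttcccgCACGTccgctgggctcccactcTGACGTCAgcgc

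In Pck1 the capitals mark TTACGTCA, which began 93 bases before the start and occurs in 0.447% of 32851 promoters of this length. The Pklr match is the carbohydrate response element, at 170 bases before the downstream start, found in 0.0974% of promoters. Hk2 held ACGTG at 2 places and Ldha at 3, where its palindrome CACGTG reads on both strands, and 16.6% of promoters hold at least 1. Ldha also held TGACGTCA, present in 1.55%. No match was found before the upstream Pklr start or the downstream Ldha start, which are not shown. Of the other members, only Aldoa had a match, 1 ACGTG shared by its 2 overlapping starts, and none was found before Fbp1, Hk1 or Pfkp. A match is a description of letters and says nothing of binding in these livers.

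On 430A the representative probe sets of the 3 adult liver genes all fell off NTBC, in both genotypes, and stood 2.33-fold to 4.12-fold lower. The hepatocyte marker sums given above also stood lower, and their part in these falls was not tested. In the same comparisons 16.5% and 11.5% of all genes passed as lower. Pck1, which makes phosphoenolpyruvate from oxaloacetate, read 5101.0, 4990.3, 3836.6 and 4405.5 in normal livers 1 to 4, 1649.4, 1424.0 and 909.0 in the Fah off livers, and 816.4 and 1476.7 in the Fah p21 off livers. Every liver off NTBC lay below every normal liver. The log2 change of Pck1 was -1.81 ± 0.23 (SE; limma adjusted p = 1.43e-04) in Fah off and -2.04 ± 0.27 (adjusted p = 2.47e-04) in Fah p21 off. A second Pck1 probe set on 430A read 22.7 to 54.6 throughout and was too dim to be tested.

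Fbp1, which removes a phosphate from fructose-1,6-bisphosphate, read 13621.7, 13607.9, 11684.7 and 10649.1 in the normal livers. It read 4524.0, 4749.0 and 5303.4 in Fah off and 4655.2 and 5971.9 in Fah p21 off. The groups off NTBC again lay wholly below normal, and the 3 Fah off livers were close to one another. Its log2 change was -1.34 ± 0.13 (limma adjusted p = 1.58e-05) and -1.22 ± 0.14 (adjusted p = 1.27e-04).

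Pklr had 3 probe sets on 430A, and all passed in both comparisons, where 35.5% and 28.4% of all probe sets did. Its brightest read 1273.3, 1050.2, 923.5 and 802.5 in normal livers, 318.4, 289.6 and 189.5 in Fah off, and 285.6 and 282.9 in Fah p21 off. The highest liver off NTBC stood at less than the lowest normal liver. The log2 changes were -1.90 ± 0.20 (limma adjusted p = 3.74e-05) and -1.78 ± 0.23 (adjusted p = 2.36e-04). The next brightest gave -1.87 and -1.74, and the dimmest gave -2.68 in Fah off. In Fah p21 off the dimmest lay below the 40th percentile in both livers (51.6 and 54.5) and was at least 5.6-fold lower. Markers of erythroid cells, which also express Pklr, moved with it: the 5 measured of 7 summed to 1436.6 to 2432.3 in normal livers, 175.5 to 364.3 in Fah off and 256.6 to 430.1 in Fah p21 off. Their part in the Pklr result was not tested.

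**Figure D1:**
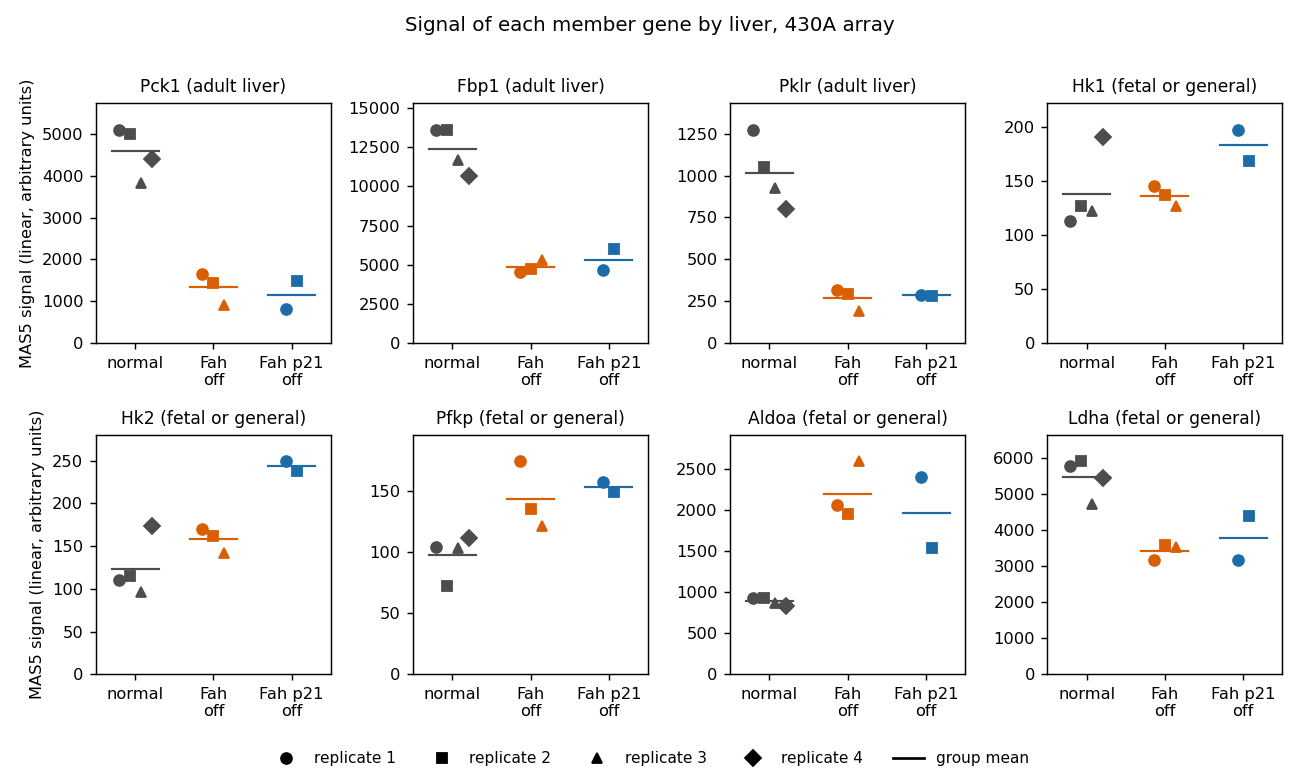
MAS5 signal (vertical axis, linear, from 0) of the representative probe set of each member gene in the 9 livers of 430A, grouped as normal, Fah off and Fah p21 off; symbols give the replicate number and lines the group mean. Pck1, Fbp1, Pklr and Ldha sit lower in all 5 livers off NTBC, Aldoa sits higher, and normal 4 is the highest normal liver for Hk1 (190.8) and Hk2 (173.3).

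The 5 fetal or general genes did not move as a set: Aldoa rose, Ldha fell, Hk2 passed in Fah p21 off, and Hk1 and Pfkp did not pass on 430A. In these comparisons 19.7% and 17.8% of all genes passed as higher. Hk1, the hexokinase of most tissues, read 113.2, 126.2, 121.7 and 190.8 in normal livers, 145.0, 137.1 and 126.8 in Fah off, and 197.1 and 168.6 in Fah p21 off. Normal 4 alone overlapped the Fah p21 off livers. The log2 changes of Hk1 were 0.01 ± 0.19 (limma adjusted p = 0.976) and 0.41 ± 0.22 (adjusted p = 0.199). Without normal 4 the Fah p21 off value was 0.56 and passed (adjusted p = 0.036). A second Hk1 probe set was dim, at 4.7 to 14.0 in normal livers, 28.6 to 33.1 in Fah off and 18.5 and 28.5 in Fah p21 off, and was not among those tested. With no filter on dim probe sets it passed in both (1.19, limma adjusted p = 0.00275, and 0.86, adjusted p = 0.0345). With normal 4 left out as well, its Fah p21 off call was lost (0.87, limma adjusted p = 0.0518).

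Hk2, the inducible hexokinase of muscle, fat and tumours, read 110.9, 114.7, 96.0 and 173.3 in normal livers. It read 170.5, 161.8 and 142.1 in Fah off and 249.4 and 237.8 in Fah p21 off. Both Fah p21 off livers were above all others, while the Fah off livers lay above normal 1 to 3 and below normal 4. The log2 change was 0.36 ± 0.20 in Fah off (limma adjusted p = 0.182) and 0.96 ± 0.22 in Fah p21 off (adjusted p = 0.00825). Without normal 4, Hk2 also passed in Fah off (0.52, adjusted p = 0.0266). The Fah p21 off call was lost when either of its livers was left out (0.92, adjusted p = 0.0683, and 0.99, adjusted p = 0.052) and against normal 4 alone, the mouse of the same genotype (0.47, adjusted p = 0.252). Each of these leaves 1 liver in a group, which is assumed to vary like the other groups, and the sizes without either liver were close to the reported one.

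Pfkp encodes the platelet form of phosphofructokinase, the committing step of glycolysis. Its brighter probe set read 104.2, 72.3, 103.1 and 111.6 in normal livers, 173.9, 134.6 and 121.1 in Fah off, and 156.9 and 148.6 in Fah p21 off. All 5 livers off NTBC were above the 4 normal livers, yet the log2 changes of 0.51 ± 0.20 (limma adjusted p = 0.0683) and 0.61 ± 0.22 (adjusted p = 0.0652) did not pass. Against the wildtype livers alone Pfkp passed in Fah p21 off (0.75, limma adjusted p = 0.0472), as did all 8 members. With that control 4969 of 15307 probe sets passed, where 4353 did with all normal livers and 3188 with the knockout livers on NTBC. The second Pfkp probe set was dim and not tested, and read 10.6, 15.3, 13.9 and 44.1 in normal livers, 48.9, 52.5 and 52.3 in Fah off, and 83.5 and 82.4 in Fah p21 off. With no filter on dim probe sets it gave 1.10 (adjusted p = 0.0298) and 1.70 (adjusted p = 0.00822).

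Aldoa, the aldolase of muscle and of most tissues other than adult liver, was the member that rose in both comparisons. Its brightest probe set read 928.5, 926.1, 874.6 and 833.4 in normal livers, 2058.1, 1951.4 and 2593.8 in Fah off, and 2400.5 and 1534.6 in Fah p21 off. The normal livers lay close together and far below the rest, and the pair of Fah p21 off livers was spread more widely. The log2 changes were 1.29 ± 0.16 (limma adjusted p = 1.34e-04) and 1.10 ± 0.19 (adjusted p = 0.00129). Its 3 other probe sets gave 1.00 to 1.33 in Fah off and 0.74 to 1.06 in Fah p21 off, and all passed. All 4 are of the kind whose probes can also bind related sequences, so signal from near-identical copies cannot be separated.

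Ldha encodes the muscle subunit of lactate dehydrogenase, which adult liver also makes in quantity. It went the same way as the adult liver genes, though less far. The median log2 change of the tested hepatocyte markers was -0.62 in Fah off and -0.61 in Fah p21 off. Their part in the Ldha result was not tested. Ldha read 5772.6, 5904.4, 4716.6 and 5445.3 in normal livers, 3165.6, 3571.5 and 3528.0 in Fah off, and 3181.1 and 4381.2 in Fah p21 off. No liver off NTBC reached the lowest normal liver, although the second Fah p21 off liver came near it. The log2 changes were -0.67 ± 0.13 (limma adjusted p = 0.00236) and -0.54 ± 0.15 (adjusted p = 0.0195). The Fah p21 off call was lost without the first of its livers (-0.31, adjusted p = 0.256), with quantile normalization (-0.21, adjusted p = 0.321) and with the knockout livers on NTBC as control (-0.44, adjusted p = 0.115). Against the genotype-matched liver on NTBC alone, neither comparison passed for Ldha (-0.46, adjusted p = 0.176, and -0.54, adjusted p = 0.167), though that control is a single liver and the size in Fah p21 off was the one reported.

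Markers of other cells did not all go one way. Lymphocyte, neutrophil, endothelial and adipose marker sums overlapped between normal and Fah off livers, and the erythroid sum stood lower off NTBC, as given above. The lymphocyte sum was higher in Fah p21 off (858.8 to 951.8) than in normal livers (468.4 to 697.8) and Fah off (604.9 to 816.9). On 430 2.0 the Fah p21 off livers, at 1133.6 and 1836.3, lay on either side of the normal liver (1548). Cholangiocyte markers, 6 of 7 measured, summed to 139.9 to 244.6 in normal livers, 532.4 to 709.6 in Fah off and 538.6 to 749.5 in Fah p21 off. Stellate cell markers, 7 of 7, summed to 3578.1 to 4320.2, 5195 to 6926.1 and 6967.6 to 7929.5. Macrophage markers overlapped between normal (5330.3 to 10179) and Fah off (8953.7 to 11067) and were higher in Fah p21 off (11860 to 12791). Skeletal muscle markers summed to 163.6 to 336.5 in normal livers and 150.9 to 213.2 in the livers off NTBC. The part of these cells in the results was not tested.

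Loss of p21 was asked about directly by setting the Fah p21 off livers against the Fah off livers. Only 0.0435% of genes passed in that comparison, and 0 of the 8 member genes did by limma, with 1 (Hk2) at an unadjusted p under 0.05, where 8.62% of all genes were. Hk2 had the largest difference among representative probe sets, 0.60 ± 0.23 (limma adjusted p = 0.539), with both Fah p21 off livers above the 3 Fah off livers, where 29.1% of all genes had groups that did not overlap. Hk1 differed by 0.40 ± 0.23 (adjusted p = 0.692), and its groups did not overlap either, which made 2 of the 8 members. The other representatives lay between -0.23 ± 0.28 (Pck1) and 0.13 ± 0.16 (Ldha). The comparison rests on 2 against 3 livers, and a missed threshold does not show equal levels.

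**Figure D2:**
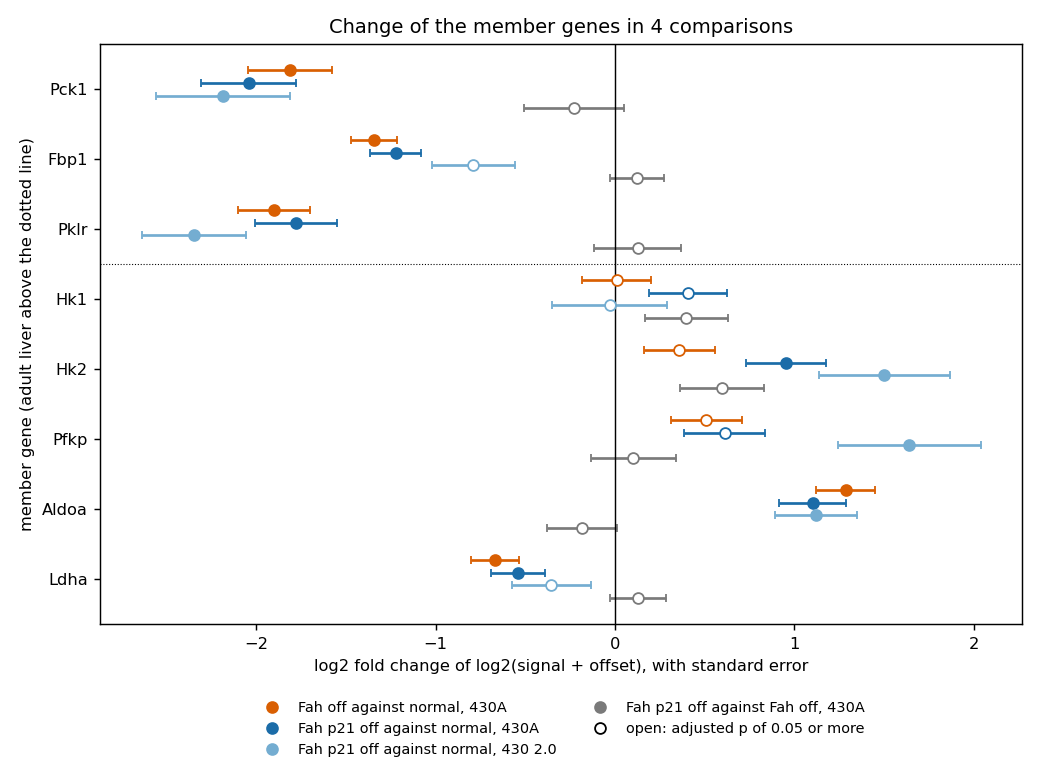
Log2 fold change (horizontal axis) with its standard error for each member gene (vertical axis) in 4 comparisons, filled where the adjusted p was under 0.05 and open otherwise. The 3 adult liver genes lie left of 0 in each comparison with normal livers, from -0.79 (Fbp1 on 430 2.0) to -2.35 (Pklr on 430 2.0), and the grey points of Fah p21 off against Fah off lie between -0.23 and 0.60.

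The 430 2.0 array gave a separate reading from 2 other Fah p21 off livers, against 1 normal liver. Here 14% of genes passed, and 5 of 8 members did. With 1 residual degree of freedom this fit is weak. On data simulated with few changed probe sets it missed many of them, a share that need not hold where more change. It also made more false calls there than its threshold allows, so the signals count for more than the adjusted p-values. Pck1 read 10776.6 in the normal liver and 1715.7 and 3256.2 in the Fah p21 off livers (-2.19 ± 0.37, limma adjusted p = 0.0121). Another Pck1 probe set gave -2.53. Pklr, read here by the set that came second on 430A, was 871.8 against 167.8 and 169.1 (-2.35 ± 0.29, adjusted p = 0.00348). Both lay far below the normal liver.

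On the same array Fbp1 read 21137.5 against 11491.3 and 12998.7, a smaller difference that did not pass (-0.79 ± 0.23, limma adjusted p = 0.0761). Hk2 read 196.9 against 732.0 and 435.1 (1.50 ± 0.36, adjusted p = 0.0422), and Pfkp 88.7 against 364.7 and 221.9 (1.64 ± 0.40, adjusted p = 0.0415). Pfkp thus passed here by its representative probe set, and not on 430A. Its other tested set here read 65.0 against 126.5 and 85.9 (0.65) and did not pass. The dimmer Hk1 set, which was tested on this array, read 28.9 against 59.6 and 47.8 (0.81) and did not pass. Aldoa read 1295.4 against 2947.7 and 2697.1 (1.12 ± 0.23, adjusted p = 0.0229), with 4 of its 5 probe sets passing, where 11.5% of all did. Hk1 read 198.5 against 198.2 and 190.5, and Ldha 9694.8 against 7762.4 and 7395.6 (-0.36 ± 0.22, adjusted p = 0.372). Of the 8 genes, 1 passed when no filter was used and 1 when the intensity trend was dropped. The single control here carries the same title, normal 4, as the liver that stood apart on 430A for 1 probe set each of Hk1, Pfkp and Pklr.

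Partner isoenzymes of the same step set the members in context. Pkm, the pyruvate kinase of fetal liver and most other tissues, read 98.2, 64.8, 116.2 and 134.0 in normal livers, 777.6, 928.3 and 1669.3 in Fah off, and 1079.5 and 725.9 in Fah p21 off. It rose by 3.29 ± 0.29 (limma adjusted p = 9.71e-06) and 3.02 ± 0.33 (adjusted p = 7.35e-05), while Pklr fell. The log2 ratio of Pkm over Pklr within an array, set against its normal mean, was 4.46 to 6.27 in Fah off and 4.52 to 5.08 in Fah p21 off. Pck2, the mitochondrial counterpart of Pck1, read 18 to 21.5 in normal livers, 77.6 to 97.1 in Fah off, and 104.8 and 210.9 in Fah p21 off (limma adjusted p = 0.00113 and 3.48e-04). Its normal signals lay below the 40th percentile of their arrays (73.8 to 100 on 430A), under which a probe set counts as dim here, so it was tested only through the livers where it is high. With dim signals raised to that percentile it was at least 1.07-fold higher in Fah off and at least 1.80-fold higher in Fah p21 off.

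The partners Pfkl and Pfkm (liver and muscle phosphofructokinase), Ldhb (the heart subunit of lactate dehydrogenase) and Fbp2 (the muscle bisphosphatase) did not pass. Pfkl changed by -0.13 ± 0.18 and -0.36 ± 0.21, and Ldhb by 0.20 ± 0.24 and 0.15 ± 0.27. The Pfkp over Pfkl shift was 0.50 to 0.88 in Fah off and 0.88 to 1.05 in Fah p21 off, within or just above the normal range of -0.66 to 0.68. The Pfkp over Pfkm shift was 0.70 to 0.89 and 0.81 to 0.83, above the normal range of -0.40 to 0.38. These pairs were chosen with the member values known and carry no test of their own.

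**Figure D3:**
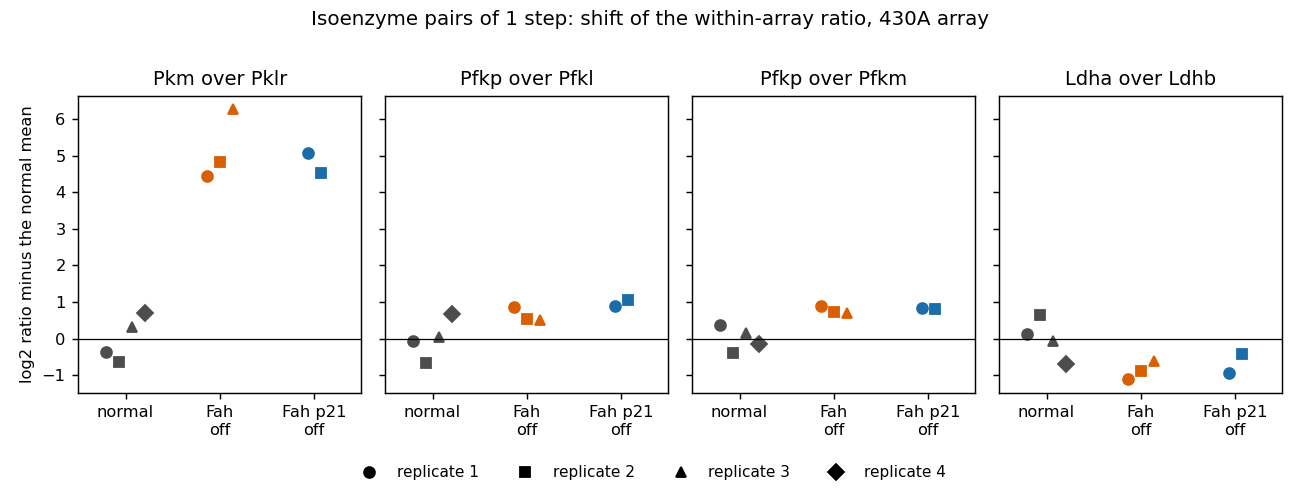
Shift of the within-array log2 ratio of 2 isoenzymes of 1 step from its mean over the normal livers (vertical axis) in each liver of 430A (points; symbols give the replicate). Off NTBC, Pkm over Pklr (4.46 to 6.27) stands far above the normal livers and Pfkp over Pfkm (0.70 to 0.89) above them, whereas Ldha over Ldhb (-1.11 to -0.43) overlaps the normal range of -0.70 to 0.64.

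Among other genes of both pathways, 25 of 33 were measured on 430A and 23 tested. In Fah off 7 rose, 8 fell and 8 did not pass, with a median log2 change of -0.06 against 0.0044 over all genes tested. In Fah p21 off 7 rose, 7 fell and 9 did not pass, with a median of 0.15 against 0.09. Pck2, tested only through the livers where it is high, is among those that rose in each. Glucose entry split by gene: Slc2a2, the liver glucose transporter, fell (log2 change -2.41 and -2.47), whereas Slc2a1, the general transporter, rose by 1.60 and 1.52. Gckr, a regulatory protein of liver glucose use, changed by -3.74 and -2.67.

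These counts stand beside 19.7% and 17.8% of all genes that passed as higher, and 16.5% and 11.5% as lower. Of upper glycolysis, 1 of 5 tested genes passed in Fah off, the aldolase Aldoc (-0.64 ± 0.20, limma adjusted p = 0.0293), a call lost in 11 of 22 alternatives. In Fah p21 off 0 passed by limma, and 0 had an unadjusted p under 0.05. Of lower glycolysis, 3 of 6 rose in each: Pkm, the mutase Pgam1 (1.27 and 1.09) and the isomerase Tpi1 (0.58 and 0.41), whose call in Fah p21 off was lost in 11 of 22 alternatives (0.16 to 0.74). In gluconeogenesis 3 of 9 rose and 5 fell in each comparison. Those that fell were Slc37a4, the glucose-6-phosphate transporter (-2.03 and -1.56), G6pc, the phosphatase that frees glucose (-1.31 and -1.60), the transaminase Gpt (-0.79 and -0.64), Mdh1, the cytosolic malate dehydrogenase (-0.53 and -0.74), and Pcx, pyruvate carboxylase (-0.57 and -0.64). Those that rose were Mdh2 (1.02 and 0.86), Gpt2 (0.46 and 0.52) and Pck2, which was tested only through the livers where it is high.

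**Figure D4:**
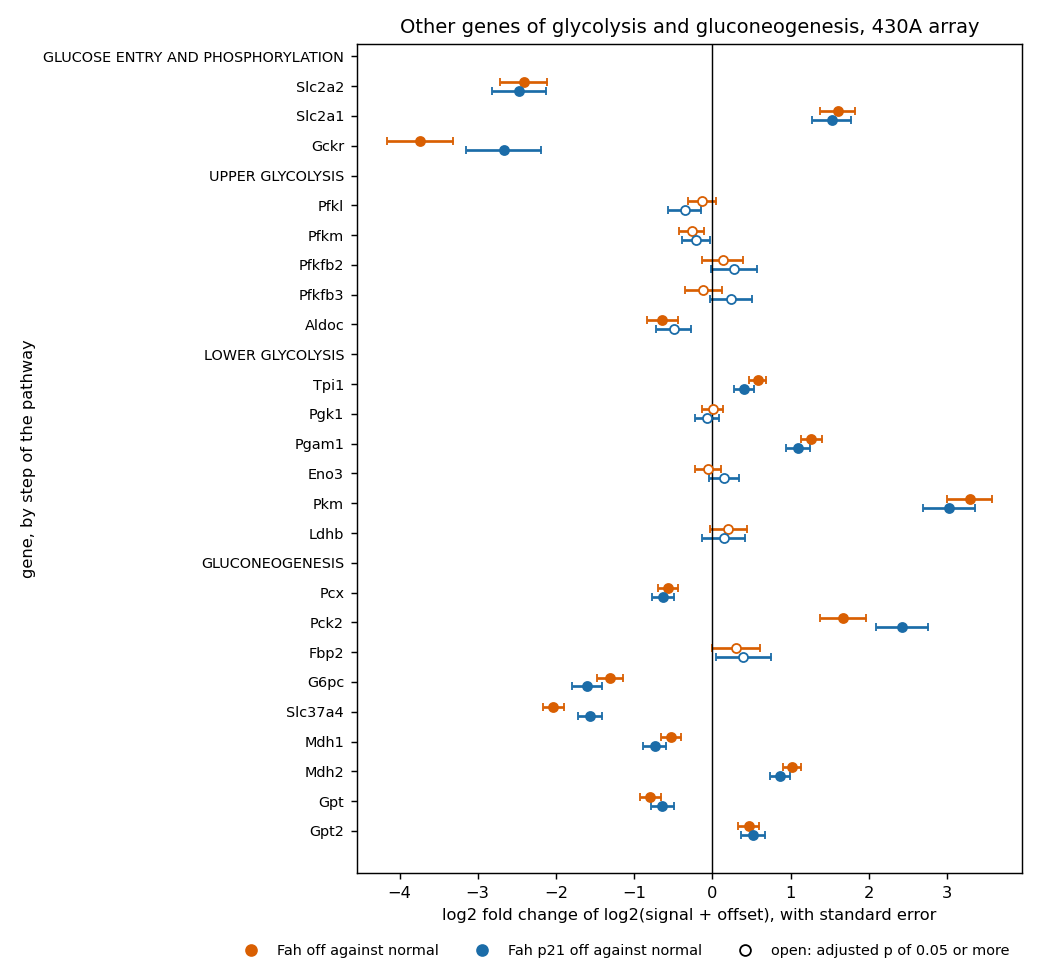
Log2 fold change with its standard error (horizontal axis) of the 23 other pathway genes tested on 430A, by step (vertical axis), in Fah off and Fah p21 off against normal livers; open points did not pass, and the fitted value of Pck2 is against dim normal signals. Both colours lie on the same side of 0 for the genes that passed in both comparisons, from Gckr (-3.74 and -2.67) to Pkm (3.29 and 3.02).

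Genes that steer pyruvate moved both ways. Pdk4, a kinase that shuts pyruvate dehydrogenase, read 40.5 to 73.2 in normal livers, 1801.2 to 2577.3 in Fah off, and 1345.9 and 1475.2 in Fah p21 off (limma adjusted p = 3.8e-08 and 3.43e-07). Its normal signals were dim by the same measure, and with them raised to the 40th percentile it was at least 26.4-fold and 17.1-fold higher. Pdk3, also dim in normal livers, was at least 1.97-fold and 1.43-fold higher. Pdk4 and Pdk3 were thus tested only through the livers where they are high. Slc16a1, a lactate and pyruvate transporter, rose by 1.14 and 1.22 on the log2 scale, and Pdk1 fell (-2.36 and -2.44). The pyruvate dehydrogenase subunits Pdhb (0.66 and -0.17) and Pdha1 (-0.44 and -0.24) passed in Fah off alone, higher and lower. These calls were lost in 9 and 16 of 22 alternatives. In total 4 of 8 pyruvate handling genes rose, Pdk4 and Pdk3 among them, and 2 fell in Fah off, and 3 and 1 did in Fah p21 off. Over all genes 19.7% and 17.8% passed as higher, and 16.5% and 11.5% as lower, beside these counts and those that follow. In the pentose phosphate pathway 4 of 6 rose in each, led by Pgd, which makes NADPH (3.43 and 3.16), with Rpia (1.17 and 1.00), Tkt (1.10 and 0.99) and Taldo1 (0.87 and 0.55), and Rpe fell in Fah off (-0.41). Of 7 glycogen and fructose genes 4 rose in Fah off and 3 in Fah p21 off, while 3 fell in each, among them Khk, ketohexokinase (-1.83 and -1.59), Pygl, liver phosphorylase (-1.51 and -1.26), and Gys2, liver glycogen synthase (-0.73 and -1.09). Pgm2 (1.51 and 1.09), Pgm1 (0.99 and 0.64) and Gbe1, the glycogen branching enzyme (0.93 and 1.57), rose in both, and Ugp2 in Fah off (0.59).

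Regulators and hypoxia-inducible genes moved both ways. Of 14 regulators tested, 2 rose and 4 fell in Fah off, and 1 rose and 4 fell in Fah p21 off, close to the 36.2% and 29.4% of all genes that passed. Myc rose (1.88 and 1.57), and Hif1a passed in Fah off alone (0.41 and 0.15). Those that fell were Cebpa, a factor of mature hepatocytes (-1.07 and -1.16), Srebf1, which drives lipid synthesis (-1.29 and -0.97), the glucagon receptor Gcgr (-1.19 and -0.98) and Hnf4a (-0.51 and -0.50). Of 9 hypoxia-inducible genes outside glycolysis, 4 rose and 2 fell in each: Ndrg1 rose by 2.23 and 1.75, Ero1a by 1.14 and 0.83, Egln3 by 1.13 and 0.60 and P4ha2 by 0.97 and 1.04. Vegfa, a classic target, fell (-0.68 and -0.88), Egln1 passed as lower in Fah off alone (-0.49 and -0.16) and Bnip3 in Fah p21 off alone (-0.39 and -0.77).

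The genes whose signals followed each member most closely over the 9 livers of 430A are given as a description, since the points share the group differences. Pck1 was most like Faah and Il18 (Pearson r = 0.98 for each), Fbp1 like Pdxdc1 and Jtb (0.99), and Pklr like Homer2 and Tm7sf2 (0.99). Aldoa was most like Igfbp6 and Kpna4 (0.99), and Ldha like Cnp (0.99) and Calr (0.98). For Hk1 these were Adam15 (0.98) and Pdlim2 (0.95), for Hk2 Cdcp1 (0.98) and Six2 (0.97), and for Pfkp Ankrd54 (0.97) and Zfp612 (0.96). An r over 0.95 was reached by 289 genes for Pklr and by 3 for Hk1.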

How the data were processed

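The authors deposited linear MAS5 intensity signals, for which the submitters' processing notes name GCOS 1.4.0.036; the genome build was not given in the sources used here. Arrays had been scaled to a common level, with trimmed means of 348 to 349. Signals were taken to log2(signal + offset), the offset being the 10th percentile of a table (9.9 on 430A, 3.8 on 430 2.0), which understates changes of dim genes. After 64 controls, those reaching the 40th percentile of signal in 2 arrays or more were tested (15307 and 26925). The 430A table was fitted whole, 9 arrays together, with limma 3.58.1 in R 4.3.3 (lmFit, eBayes with trend; 6 residual and 5.01 prior degrees of freedom), with Benjamini-Hochberg adjustment. Tables were scaled separately, so none was tested against the other.

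Where a gene had several probe sets, the one brightest on average (log2) represents it. Symbols came from GEO's platform annotation, updated through GRCm38.p6 RefSeq (20351 of 20380 probe sets with 1 symbol matched on 430A, 34741 of 34945 on 430 2.0; 691 and 932 had several symbols, 1555 and 9160 none). Of the member probe sets 13 of 16 and 16 of 19 passed the filter. Named were all members, the partner isoenzymes, and from each pathway list the genes that passed with the largest changes, up to 4 per direction. Members, lists and alternatives were chosen with earlier results of these data known; the promoter motifs were chosen after the promoters were read, and the lower bounds for dim groups after their values were seen. The fits were tested on data simulated with few changed probe sets. Known changes were recovered on average, but the 430 2.0 fit had low power and too many false calls there. Alternatives covered the filter, offset, scaling, trend, control livers, replicate numbers, probe set averaging and each liver left out. Figures used matplotlib 3.10.9 under Python 3.11.15.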

Additional observations from a re-analysis of the deposited data

Results flagged for a closer look

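Each of the 16 member probe sets was examined in the normal livers of 430A for a liver far from the other 3, by Dixon's test, which flags about 1 group in 20 by chance. It marked 3, and all are normal 4, the Fah, p21 knockout mouse on NTBC. The brighter Hk1 probe set read 190.8 there against 113.2 to 126.2 in the others. The dimmer Pfkp probe set read 44.1 against 10.6 to 15.3. The dimmest Pklr probe set read 432.5 against 583.1 to 599.3. The probe sets share the liver, so these are not independent, and with 1 mouse of each condition its genotype and the single animal cannot be told apart.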

How the results depend on the processing

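For Pck1, Fbp1, Pklr and the brightest Aldoa probe set, both comparisons with normal livers on 430A kept direction and call in every alternative run. Probe sets passing numbered 5437 in Fah off and 4353 in Fah p21 off; leaving out each liver gave 4315 to 5246 and 2533 to 4663, and the genotype-matched control 2596 and 1862, with 8 other pathway genes passing in Fah p21 off. Fah p21 off against Fah off called 6 probe sets: 1 with the 60th percentile filter, no offset or the replicate block, 2 with only the groups compared, 2 without normal 4 and without the filter (added after seeing the data), 3 with a common median, 13 without the trend, 14 with the 25th percentile offset, and 1 to 80 with a liver left out (80 without the first Fah p21 off liver). On 430 2.0, with 3101 as reported, no filter gave 1002 and no trend 1225, with 1 and 1 member genes and 3 and 2 other pathway genes. The median of all probe sets tested in Fah p21 off against normal was 0.11 as deposited, -0.02 with quantile normalization and -0.13 with a common median, and 62.4%, 51.7% and 39.3% of calls were higher (56.7%, 51.7% and 48.9% in Fah off).

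Values that changed sign had not passed; the cause was not tested. In Fah off against normal, Hk1 gave -0.068 with quantile normalization, -0.057 with a common median, -0.15 with knockout controls and -0.069 to 0.17 with a liver left out. Insr gave -0.055, -0.049, -0.16 and -0.12 to 0.17, and -0.16 with the matched control. With knockout controls Ldhb gave -0.078 and Pfkl 0.10. In Fah p21 off against normal, a common median gave Ldhb -0.093 and Hif1a -0.094. Nr3c1 gave 0.071 with the replicate block, 0.17 with wildtype controls, 0.014 without normal 4 and without the filter, and -0.11 to 0.077 with a liver left out. That range was -0.030 to 0.38 for Ldhb and -0.088 to 0.88 for Fbp2. Knockout controls gave Ldhb -0.14 and Rpe 0.0071, and the matched control gave Pdhb 0.31, Ldhb -0.56, Rpe 0.045, Hk1 -0.062, Pfkl 0.14 and Fbp2 -0.16. In Fah p21 off against Fah off, quantile normalization gave Pfkp -0.058 and the second Pklr set -0.019. A common median gave Pfkp -0.058, Ldha -0.044, Fbp1 -0.050 and the brighter Pklr sets -0.039 and -0.039. Pklr gave -0.037 with the replicate block and -0.071 as a mean of probe sets. With a liver left out the ranges were -0.0033 to 0.24 (Pfkp), -0.092 to 0.27 (Pklr), -0.65 to 0.20 (Pck1), -0.51 to 0.14 (Aldoa), -0.10 to 0.36 (Ldha) and -0.058 to 0.30 (Fbp1). On 430 2.0 Pdhb gave 0.033 and Pfkm -0.073 with quantile normalization, and Pfkm -0.063 with a common median.

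Of the calls of named pathway genes, 29 of 44 in Fah off and 19 of 38 in Fah p21 off were lost in no alternative. Lost in 5 or more were Pdha1, Aldoc, Pdhb, Hif1a, Rpe, Gpt2 and Vegfa in Fah off, and Tpi1, Bnip3, Egln3, Gpt2, Pgm1 and Taldo1 in Fah p21 off. Same-numbered livers did not deviate together (correlations of -0.28 to 0.07). The normal livers also differ in condition, so this cannot exclude pairing by number. With the replicate block Hk2 passed in Fah off (0.52, limma adjusted p = 0.0496). The number of arrays, and 1 residual degree of freedom on 430 2.0, limit what could be called.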
